A study of Mus musculus with 48 samples.

Results

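Voltage-gated sodium channels open on depolarisation and carry the inward current of the action potential. Each channel is a large pore-forming alpha subunit that can be joined by smaller beta subunits, which cross the membrane once, carry an immunoglobulin-like domain outside the cell and alter gating and adhesion. Several alpha genes hold a pair of mutually exclusive exons that encode part of the voltage-sensing region of the first domain, and the neonatal form is known to give way to the adult form as the brain matures. The 7 genes described here are the alpha subunits Scn1a, Scn2a1, Scn3a and Scn8a and the beta subunits Scn2b, Scn3b and Scn4b. They were taken by symbol from a table of 23420 genes, and 191 of 368092 exon bins belong to them, 152 of these to the alpha subunits. An exon bin is a piece of exon that one unvarying set of annotated transcripts covers. All 7 genes passed the filter on low counts, and 176 of the 191 bins were tested.

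RNA came from the striatum of 16 mice of about 50 days, as 3 mm punches from both hemispheres pooled per mouse. The groups were 8 mice labelled 112kb congenic and 8 labelled wild-type, littermates on the C57BL/6J (B6) background, each with 4 females and 4 males, and the title of the series asks about splicing. As background, the congenic segment comes from DBA/2J and lies on chromosome 11, where none of the 7 genes lies; whether mice carried 1 or 2 copies of it is not stated in the labels. The mice held 73.1 to 82.0 M gene counts (M for the mega prefix) and 118 to 133 M exon-bin counts each, summed over 3 lanes.

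Markers of medium spiny neurons, the principal cells of the striatum, were all detected: 14 of 14 passed the filter, Ppp1r1b stood at 1967 CPM (counts-per-million after TMM scaling) on average, and their summed level was 9235 to 11801 CPM in congenic mice, against 9549 to 12146 CPM in wild-type mice. Cortical excitatory neuron markers, also 12 of 12, summed to 185 to 416 CPM in congenic mice, against 222 to 408 CPM in wild-type mice. Lamp5 gave a mean of 121 CPM of the mean sum of 294 CPM and varied little, from 105 to 134 CPM. Slc17a7, on the same list, ran from 20.7 to 186 CPM, a wider spread than the sum shows. In 1 mouse a sex-linked gene went against the labelled sex: the wild-type female Sample_4806 had 2.64 CPM of Xist, against 951 to 1549 CPM in the other females, and like them almost no Y-linked Ddx3y (0.063 CPM, against 62.7 to 93.1 CPM in males). Smaller departures were 17.6 CPM of Xist in the male Sample_4672 and 1.01 CPM of Ddx3y in the female Sample_4737, both still near their labelled sex. The tests by sex of the subunit genes, their bins and the exon shares were therefore also made without Sample_4806. The marker sums and the 3 gene lists further below were compared by sex only with Sample_4806 included. All males carry lower mouse numbers than all females but Sample_4676 and Sample_4677, so sex and the order of numbering cannot be told apart.

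The sequences of the adult exons are shown first, because they bear on which gene a read can be assigned to. In NCBIM37 the neonatal exon lies 5′ of the adult exon in Scn2a1, Scn3a and Scn8a, each is 92 bases long, and each is flanked by AG before and GT after it. Capitals mark the bases at which the adult exon differs from the neonatal exon of the same gene, and all runs read 5′ to 3′ on the coding strand.
Scn2a1 adult, bin 10, chr2:65520747-65520838: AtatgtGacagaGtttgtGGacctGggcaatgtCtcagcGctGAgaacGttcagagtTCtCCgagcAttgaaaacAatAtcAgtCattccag
Scn3a adult, bin 33, chr2:65363752-65363843: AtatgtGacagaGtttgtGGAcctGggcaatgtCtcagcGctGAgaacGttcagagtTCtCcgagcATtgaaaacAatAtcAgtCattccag
Scn8a adult, bin 5, chr15:100790034-100790125: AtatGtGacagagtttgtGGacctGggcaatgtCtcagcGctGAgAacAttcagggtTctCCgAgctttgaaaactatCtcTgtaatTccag
Scn1a adult, bin 29, chr2:66170264-66170355: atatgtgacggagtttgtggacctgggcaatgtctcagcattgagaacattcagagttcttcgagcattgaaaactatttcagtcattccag

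Within a gene the forms differed at 20 bases in Scn2a1, 21 in Scn3a and 19 in Scn8a, and the longest stretch they shared was 8 bases in Scn2a1 and Scn3a and 14 in Scn8a. Across genes the same form was more alike: the adult exons of Scn2a1 and Scn3a were identical over all 92 bases, and their neonatal exons differed at 3 bases. A read lying wholly inside the adult exon therefore cannot be assigned to Scn2a1 or Scn3a from its sequence, and how such reads were treated in the deposited counts is not stated in the labels. The adult exons of Scn1a and Scn8a were 90.2% identical to each other and 92.4% identical to that of Scn2a1. The annotation holds no neonatal partner for the adult exon of Scn1a, so Scn1a has no share.

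The adult exon carried most counts of every pair, and the neonatal share differed between genes. The neonatal share is the neonatal bin as a percentage of the counts of both bins, and its 95% Wilson interval per mouse covers counting error only. In Scn2a1, the main axonal channel of immature neurons and of many mature ones, the adult bin held 325 to 492 counts per mouse and the neonatal bin 5 to 24. Its share was 2.11 to 4.65% with a median of 2.96% in congenic mice and 1.30 to 3.87% with a median of 3.12% in wild-type mice. In Scn3a, best known from the embryonic brain, the adult bin held 106 to 190 counts and the neonatal bin 5 to 19. The Scn3a share was 6.16 to 11.4% with a median of 8.23% in congenic mice and 2.91 to 10.3% with a median of 7.30% in wild-type mice. In Scn8a, the main channel of mature nodes of Ranvier and axon initial segments, the adult bin held 210 to 367 counts and the neonatal bin 24 to 67. The Scn8a share was 7.74 to 17.8% with a median of 11.9% in congenic mice and 9.16 to 16.3% with a median of 14.7% in wild-type mice. In all 3 genes the genotypes overlapped over most of their range.

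Ordered by neonatal share over all 16 mice, Scn2a1 at 3.00 ± 0.760% (SD, n = 16) came below Scn3a at 7.72 ± 2.16% (SD, n = 16), and Scn3a below Scn8a at 13.0 ± 2.97% (SD, n = 16). Scn2a1 was below Scn3a in 16 of 16 mice, by 4.72 ± 2.11 percentage points (SD; exact two-sided sign-flip test over 65536 flips, adjusted p = 4.6e-05 over 3 pairs). Scn3a was below Scn8a in all mice but 1, by 5.24 ± 3.24 points (SD; exact sign-flip test, adjusted p = 6.1e-05). These tests compare counts in the bins, and the identical adult exons of Scn2a1 and Scn3a bear on both genes.

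Per base, the neonatal bin of Scn2a1 was close to 1 of the 2 annotated intron bins beside it and above the other. Scn2a1 bins 7 and 9, which flank the neonatal exon and belong to a transcript that keeps the intron, held 191 and 182 counts over 16 mice, and the neonatal bin 8 held 204. Per base these are 0.857 and 1.92 for the intron bins of 223 and 95 bases, and 2.22 for the neonatal exon of 92 bases, against 70.6 for the adult exon. The neonatal bin exceeded bin 9 in 11 mice, equalled it in 1 and was lower in 4, by 1.38 ± 4.06 counts on average (SD, n = 16). This comparison was chosen after the values were seen, and how much of the neonatal count comes from unspliced RNA was not tested. The annotation has no such bins beside the neonatal exons of Scn3a and Scn8a.

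Neither genotype nor sex moved a share beyond the spread between mice. Congenic minus wild-type, the difference was 0.034 percentage points (SE 0.393) in Scn2a1, 0.961 points (SE 1.09) in Scn3a and -0.860 points (SE 1.52) in Scn8a. The exact two-sided permutation test over all splits of the mice into 8 and 8 gave an adjusted p of 0.934 for each, over the 4 pairs tested. Male minus female, it was -0.463 points (SE 0.374) in Scn2a1, -1.58 points (SE 1.03) in Scn3a and -0.451 points (SE 1.53) in Scn8a, with adjusted p of 0.362, 0.362 and 0.768 in the exact permutation test. Without Sample_4806 these were -0.407, -2.03 and -0.093 points, with adjusted p of 0.463, 0.246 and 0.955 in the exact permutation test. Single-mouse Wilson intervals spanned 2.44 to 3.93 points in Scn2a1, 5.38 to 9.996 in Scn3a and 6.00 to 8.80 in Scn8a and cover counting error only. Leaving out 1 mouse moved the Scn2a1 value by sex to between -0.732 points (without Sample_4671; exact permutation test, adjusted p = 0.067) and -0.252 points (without Sample_4732), with no adjusted p under the threshold.

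**Figure D1:**
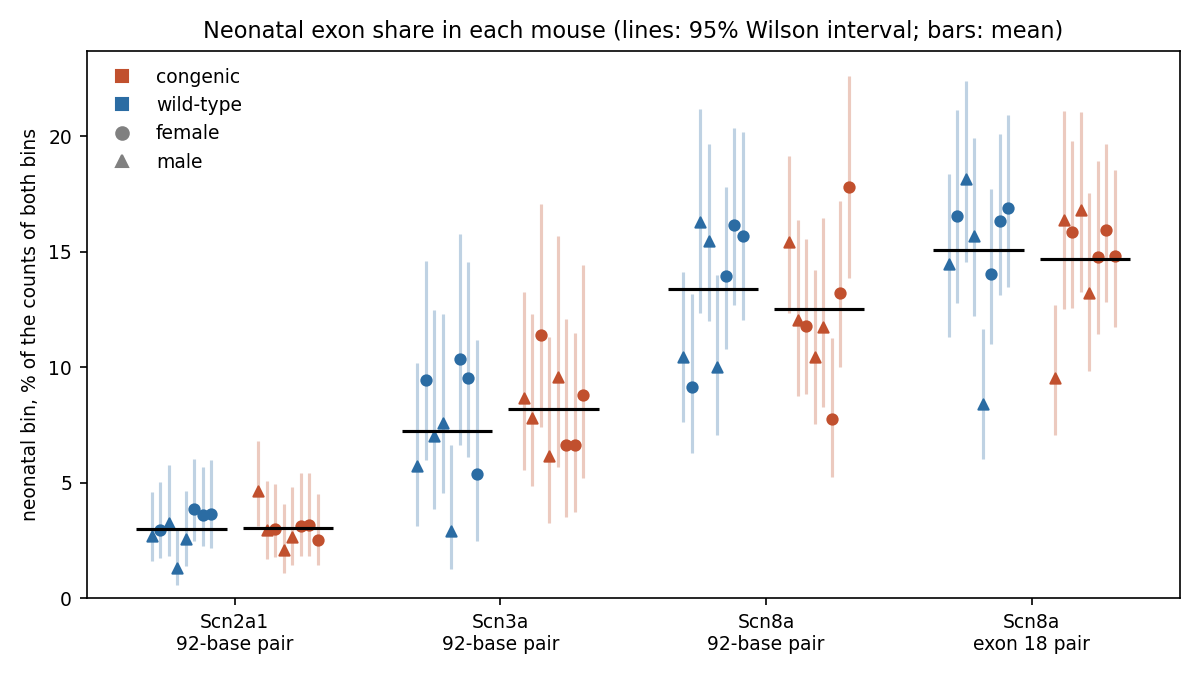
Neonatal share of each exon pair in each mouse (vertical axis, % of the counts of both bins) for 8 wild-type and 8 congenic mice, circles for females and triangles for males, with 95% Wilson intervals and a bar at each group mean. Shares rise from Scn2a1 (mean 3.00%) through Scn3a (7.72%) to the 92-base pair of Scn8a (13.0%), while the genotypes overlap in every pair.

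Scn8a has a second developmental pair at exon 18, whose neonatal form brings a stop codon into the reading frame and so a truncated protein. The annotation ends the neonatal exon at its stop codon, in capitals here, so its bin has 30 bases against 123 in the adult bin.
Scn8a exon 18 neonatal, bin 23, chr15:100854270-100854299: gttccattaagtttgtctggcttaattTAA
The neonatal bin held 32 to 71 counts per mouse and the adult bin 240 to 380. The neonatal share of both bins was 9.52 to 16.8% with a median of 15.3% in congenic mice and 8.42 to 18.2% with a median of 16.0% in wild-type mice, again overlapping. Congenic minus wild-type was -0.401 points (SE 1.35; exact permutation test, adjusted p = 0.934), and male minus female -1.57 points (SE 1.29; exact permutation test, adjusted p = 0.362), or -1.39 without Sample_4806 (adjusted p = 0.463). Since the bins differ in length, this share is not comparable with the others. Per base, the neonatal bin stood at 0.423 ± 0.086 and the adult bin at 0.592 ± 0.068 of the mean of the coding bins on either side (SD, n = 16). A bin also counts reads that only overlap it, which weighs more in a short bin. The adult bins of the 92-base pairs stood at 1.09 ± 0.058 of their neighbours in Scn2a1, 0.9505 ± 0.092 in Scn3a and 1.02 ± 0.051 in Scn8a (SD, n = 16 each), and that of Scn1a, with no annotated partner, at 1.53 ± 0.127.

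Per length of annotated exon, Scn4b was the most abundant subunit and the beta subunits Scn4b and Scn2b stood above every alpha subunit. Levels are exon-bin counts per kb of bins per M exon-bin counts, and in bulk tissue fewer expressing cells and less RNA per cell cannot be told apart. Scn4b, the subunit known for its high level in medium spiny neurons and its part in resurgent current, stood at 293 ± 16.95 (SD, n = 16), with 267 as the lowest mouse and 318 as the highest. Scn2b, a beta subunit that bonds covalently to alpha subunits, came next at 72.0 ± 2.59. Scn2a1 at 32.1 ± 1.87 and Scn3b, a beta subunit that associates without a covalent bond, at 31.0 ± 1.997 did not differ past the threshold on exon-bin counts, though they did on gene-table counts. Scn8a followed at 21.5 ± 1.82, Scn1a, the alpha subunit that fast-spiking interneurons rely on, at 11.4 ± 0.857, and Scn3a at 9.07 ± 0.637.

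Of the 6 neighbouring pairs in this order, 5 differed in 16 of 16 mice, each with the smallest p that the exact two-sided sign-flip test can give (adjusted p = 3.7e-05 over 6 pairs). The mean ratios were 4.07-fold for Scn4b over Scn2b, 2.24-fold for Scn2b over Scn2a1, 1.44-fold for Scn3b over Scn8a, 1.88-fold for Scn8a over Scn1a and 1.26-fold for Scn1a over Scn3a. Scn2a1 exceeded Scn3b in 12 of 16 mice, by 1.03-fold on average (exact sign-flip test, adjusted p = 0.059). With gene-table counts that difference passed, at a log2 ratio of 0.099 (exact sign-flip test, adjusted p = 0.0016), and on exon-bin counts it passed without Sample_4731, Sample_4732, Sample_4733 or Sample_4734 (adjusted p of 0.018 to 0.047 in the exact test). The full order of the 7 subunits was the same in 12 of 16 mice. The place of Scn1a above Scn3a depended on bins that are not fully coding. With fully coding bins only, Scn3a stood at 16.0 ± 1.32 and Scn1a at 14.6 ± 1.199 (SD, n = 16), the reverse order (exact sign-flip test, adjusted p = 0.00027). Scn3a has annotated bins of 866, 1767 and 1145 bases with 0.0014, 0.034 and 0.057 counts per base. These are non-coding but for 48 bases of the 1767. Scn1a has a non-coding bin of 2550 bases with 0.0039. For Scn3b the deposited table has 26 bins and the annotation used here 11, so its length is the least certain of the 7 and it has no value from coding bins.

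Among the alpha subunits together, Scn2a1 made up 43.0 ± 1.14% of the per-length level in congenic and 43.6 ± 0.837% in wild-type mice (SD, n = 8 each). Scn8a made up 28.9 ± 1.64% and 29.1 ± 1.10%, Scn1a 15.6 ± 1.16% and 15.2 ± 0.698%, and Scn3a 12.5 ± 0.614% and 12.02 ± 0.337%, congenic first (SD, n = 8 each). With fully coding bins only, an alternative added after the values were seen, Scn3a made up 16.0 ± 0.798% and 15.7 ± 0.396%, above Scn1a at 14.7 ± 1.11% and 14.4 ± 0.682%, and Scn2a1 made up 39.98 ± 1.14% and 40.3 ± 0.888% (SD, n = 8 each). Of the 3 beta subunits, Scn4b made up 74.1 ± 1.52% in congenic mice, against 73.8 ± 1.38% in wild-type mice (SD, n = 8 each). Both families thus had a makeup that differed between genotypes by less than a percentage point in each subunit.

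**Figure D2:**
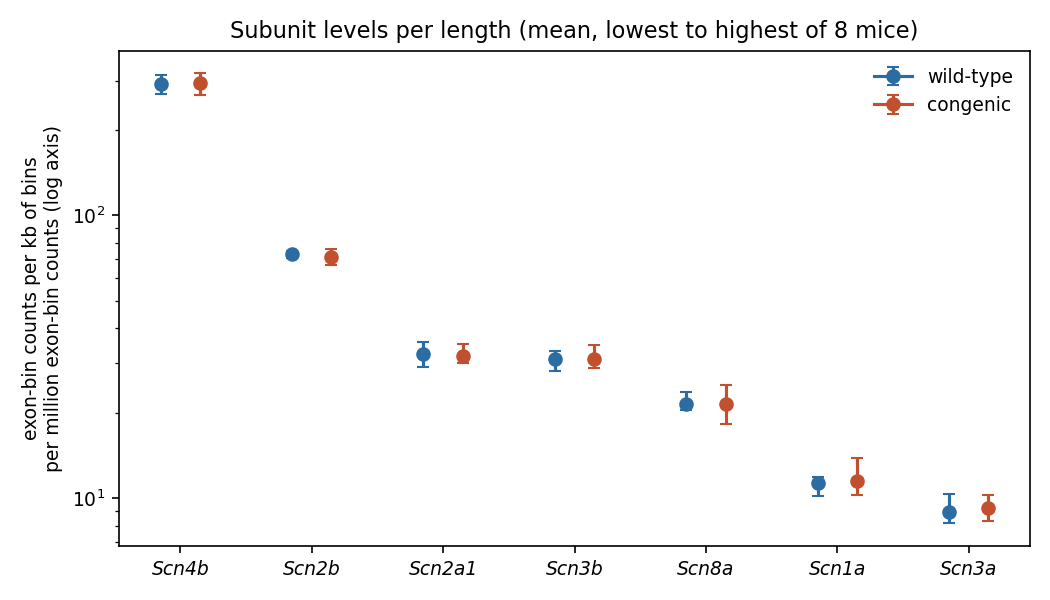
Level of each subunit per length (vertical axis, exon-bin counts per kb per M, log scale), as the mean and the lowest to highest of 8 wild-type and 8 congenic mice. Scn4b at 293 and Scn2b at 72.0 lie above the alpha subunits, and the genotypes lie side by side at each subunit.

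None of the 7 genes passed the test for genotype (edgeR quasi-likelihood test, Benjamini-Hochberg adjusted over 16716 genes), nor did any gene: 0 were called, a background of 0%, and 256 (1.53%) had an unadjusted p under 0.05. Per gene, levels are given in CPM, which do not compare between genes. Scn1a was 134 to 188 CPM in congenic mice with a median of 155, and 140 to 155 CPM in wild-type mice with a median of 151. The congenic mice spread more widely here, with Sample_4739 highest and Sample_4804 lowest of all 16. The log2 fold change of Scn1a, congenic over wild-type, was 0.046 (SE 0.049, adjusted p = 0.999), with a 95% interval of -0.057 to 0.15.

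Scn2a1 was 344 to 397 CPM in congenic mice with a median of 356, and 340 to 399 CPM in wild-type mice with a median of 363, at a log2 fold change of -0.013 (SE 0.041). Scn3a was 121 to 153 CPM in congenic mice, against 120 to 150 CPM in wild-type mice, with medians of 136 and 132. Its log2 fold change, 0.067 (SE 0.049), was the largest of the 7, and 7 of 8 congenic mice lay above the wild-type median. Scn8a was 300.0 to 403 CPM in congenic mice with a median of 347, and 323 to 377 CPM in wild-type mice with a median of 345. Its congenic mice enclosed the whole wild-type range, with males at both ends: Sample_4671 was highest, and Sample_4673 and Sample_4733 were lowest.

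Scn2b was 462 to 519 CPM in congenic mice, against 478 to 512 CPM in wild-type mice, with medians of 474 and 487. It varied least of the 7, with a coefficient of variation of 3.61% over 16 mice, lower than in all but 3.98% of 11708 genes of at least 5 CPM, whose median was 7.23%. Scn3b was 151 to 189 CPM in congenic mice, against 149 to 182 CPM in wild-type mice, with medians of 166 and 172. Scn4b was 1839 to 2219 CPM in congenic mice with a median of 2030, and 1845 to 2186 CPM in wild-type mice with a median of 1989. The log2 fold changes were -0.029 (SE 0.033) for Scn2b, 0.013 (SE 0.041) for Scn3b, 0.016 (SE 0.046) for Scn4b and -0.0026 (SE 0.058) for Scn8a. Across the 7 genes the 95% intervals ran from -0.12 (Scn8a) to 0.17 (Scn3a) on the log2 scale, so a genotype difference larger than 12.3% in Scn3a, the widest upper bound, lies outside them. The median of the 7 was 0.013, beside 0.0015 over all genes.

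**Figure D3:**
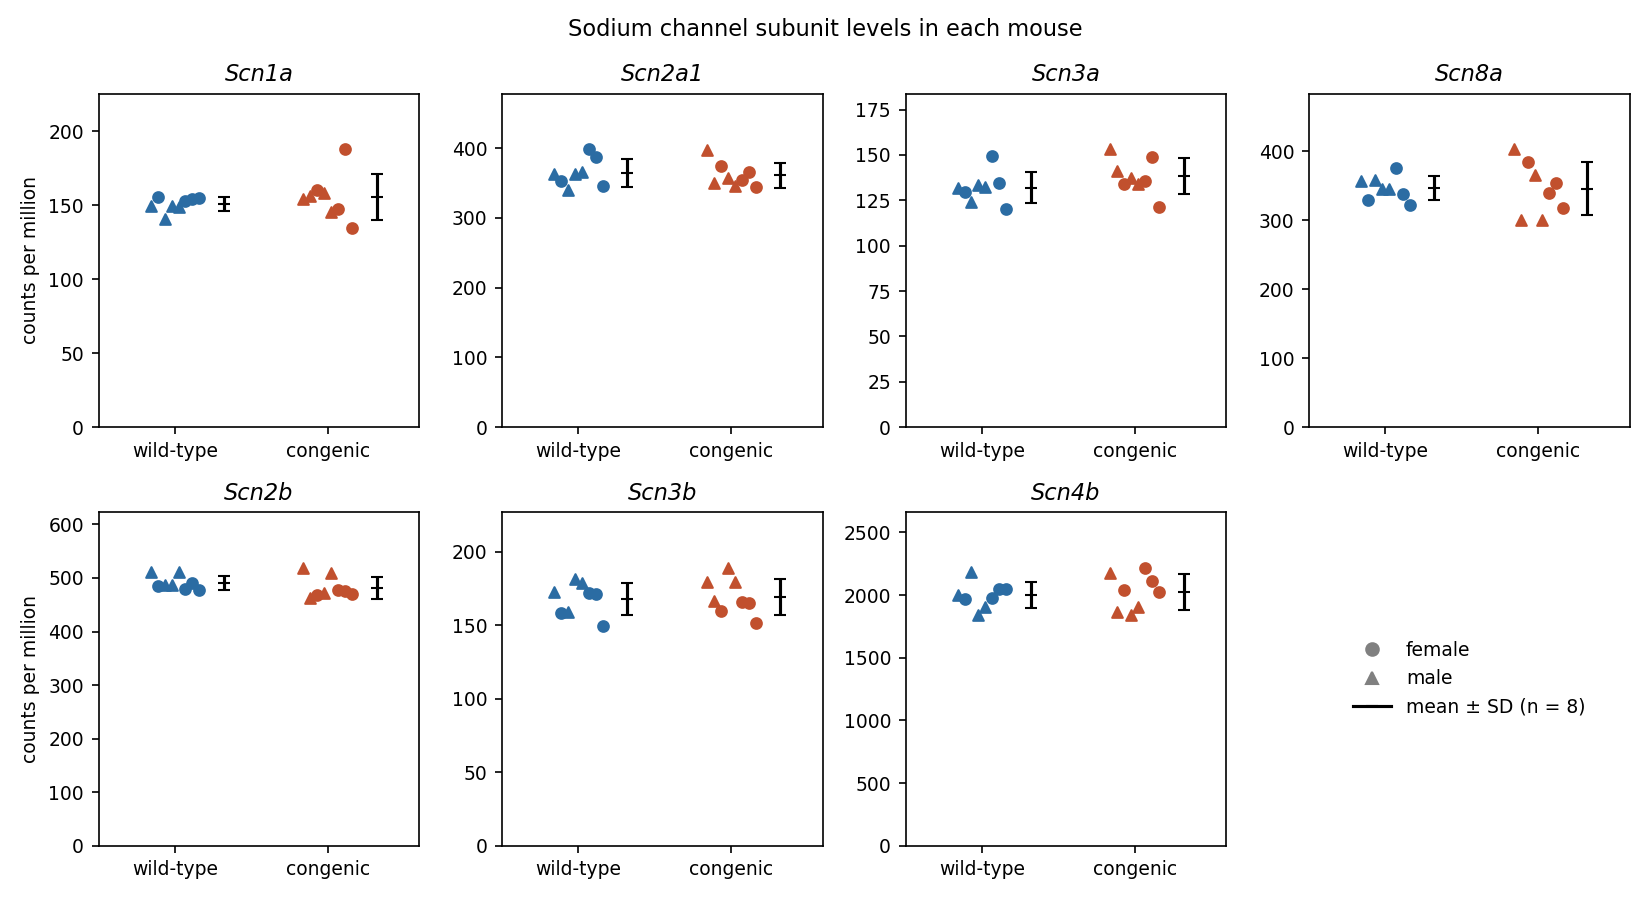
CPM of the 7 subunit genes in each mouse, by genotype, with circles for females, triangles for males and the mean ± SD of 8 mice at the right of each group. The groups overlap in all panels, and the congenic mice spread from 300.0 to 403 CPM in Scn8a against 323 to 377 CPM in wild-type mice.

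By sex, 23 genes were called of 16716 (0.138%), and none was a sodium channel subunit. Scn3b came nearest. It was 149 to 172 CPM with a median of 162 in females and 159 to 189 CPM with a median of 179 in males. The 2 ranges overlapped, and 7 of 8 males lay above the female median; the exception was Sample_4712. The log2 fold change of Scn3b, male over female, was 0.12 (SE 0.041, 95% interval 0.035 to 0.21), with p = 0.0081 and an adjusted p of 0.209 in the edgeR test. Of all genes, 14.7% had an unadjusted p under 0.05 by sex. The mean levels of several marker lists differed between the sexes too, which was not tested. The summed medium spiny neuron markers were 10372 ± 798 CPM in females and 11295 ± 537 CPM in males, the cortical excitatory markers 324 ± 69.7 and 265 ± 71.9 CPM, and the choroid plexus markers 23.4 ± 4.34 and 31.9 ± 8.00 CPM (SD, n = 8 each, ranges overlapping). Over the 16 mice, Scn3b had r = 0.525 with the medium spiny neuron score (permutation p = 0.038; rho = 0.494, permutation p = 0.054), and 0.112 without Sample_4804 and Sample_4806. It had r = 0.583 with the choroid plexus score (permutation p = 0.018; rho = 0.665, permutation p = 0.0061), and 0.618 without Sample_4673 and Sample_4712. Within the sexes these were 0.554 in females and -0.186 in males, and 0.076 and 0.851 (n = 8 each). Adjusted over 84 relations of subunits with marker scores, p was 0.493 and 0.387 for r, and 0.508 and 0.170 for rho. The part of these markers in the Scn3b value was not tested. Without Sample_4806, 15 genes were called, none of them a subunit, and the Scn3b value was 0.10, with an adjusted p of 0.387. The other 6 genes lay between -0.064 (Scn4b) and 0.050 (Scn2b), with adjusted p of 0.479 to 0.9749, and without Sample_4806 between -0.067 (Scn4b) and 0.045 (Scn2b), with Scn3a and Scn8a turning to -0.0033 and -0.013. The interaction of genotype and sex called 0 of 16716 genes (698, or 4.18%, at an unadjusted p under 0.05), with an adjusted p of at least 0.967 for each subunit.

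**Figure D4:**
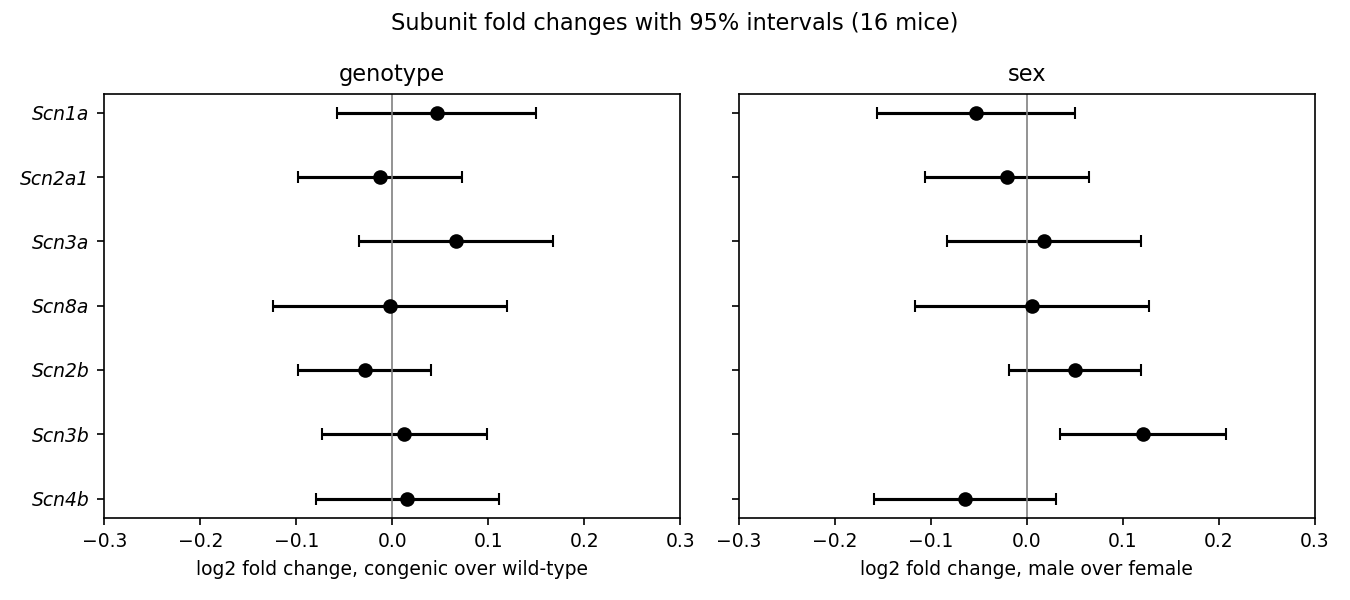
Log2 fold changes of the 7 subunit genes with 95% intervals over 16 mice, congenic over wild-type on the left and male over female on the right. All intervals of the genotype panel include 0, and in the sex panel only that of Scn3b (0.035 to 0.21) does not, before adjustment.

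Exon usage was tested as the change of a bin relative to the other bins of its gene (diffSpliceDGE of edgeR). Of the 176 subunit bins tested, 0 were called by genotype, against 1 of 235478 bins overall (0.000425%), and 0 by sex, with or without Sample_4806, against 37 overall (0.0157%). At an unadjusted p under 0.05 there were 2 subunit bins by genotype, beside 1.05% of all bins, and 1 by sex, beside 3.27%. The lowest p by genotype were in Scn3a bin 12, a coding bin of 121 bases with 296 to 410 counts per mouse (log2 fold change -0.17, p = 0.037), and in Scn2a1 bin 1, a 5′ non-coding bin of 159 bases with 362 to 662 counts (log2 fold change -0.15, p = 0.039), both with an adjusted p of 1 in diffSpliceDGE. The 2 bins of lowest p in each alpha subunit are named here, other bins lying between them in rank. By genotype the others were Scn3a bin 11 (p = 0.085), Scn2a1 bin 3 (p = 0.102), Scn1a bins 35 and 37 (p = 0.161 and 0.211) and Scn8a bins 17 and 16 (p = 0.191 and 0.430). By sex the 2 in each alpha subunit were Scn3a bin 13, of 28 bases and 8 to 29 counts (log2 fold change -0.52, p = 0.048), Scn1a bins 40 and 26 (p = 0.061 and 0.069), Scn2a1 bins 6 and 29 (p = 0.075 and 0.148), Scn8a bins 17 and 23 (p = 0.076 and 0.141) and Scn3a bin 27 (p = 0.105). In the beta subunits the lowest by sex were Scn4b bin 1 (p = 0.073) and Scn3b bins 7 and 6 (p = 0.080 and 0.101). Scn8a bin 23 is the neonatal exon 18.

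None of the bins of the exon pairs was called. By genotype the neonatal bins had log2 fold changes of 0.076 in Scn2a1 (p = 0.780), 0.12 in Scn3a (p = 0.679) and -0.058 in Scn8a (p = 0.777), and the adult bins lay between -0.065 in Scn3a and 0.052 in Scn8a. By sex, male over female, the neonatal bins had -0.19 in Scn2a1 (p = 0.489), -0.20 in Scn3a (p = 0.483) and -0.036 in Scn8a (p = 0.860), and the adult bin of Scn3a, at 0.16 (p = 0.117), was the highest of the Scn3a bins. Some annotated alternatives were low in both genotypes beside a neighbouring or alternative bin, and these were picked after their values were seen. Scn1a bin 21, an optional stretch of 33 coding bases, held 327 counts over all mice beside 2511 in the 51-base bin 22 next to it. Mean counts per base were 0.619 in bin 21, against 3.08 in bin 22 and 1.53 in the 297-base bin 23. The share of bin 21 in Scn1a exon counts was 0.137 ± 0.023% in congenic mice, against 0.116 ± 0.024% in wild-type mice (SD, n = 8 each). Of the alternative first exons of Scn1a, bin 40 held 4646 counts (1.43 mean counts per base) and bin 41 held 687 (0.373), so bin 41 was the rarer. Scn8a bin 13, an optional coding bin of 30 bases, held 62 counts in all.

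**Figure D5:**
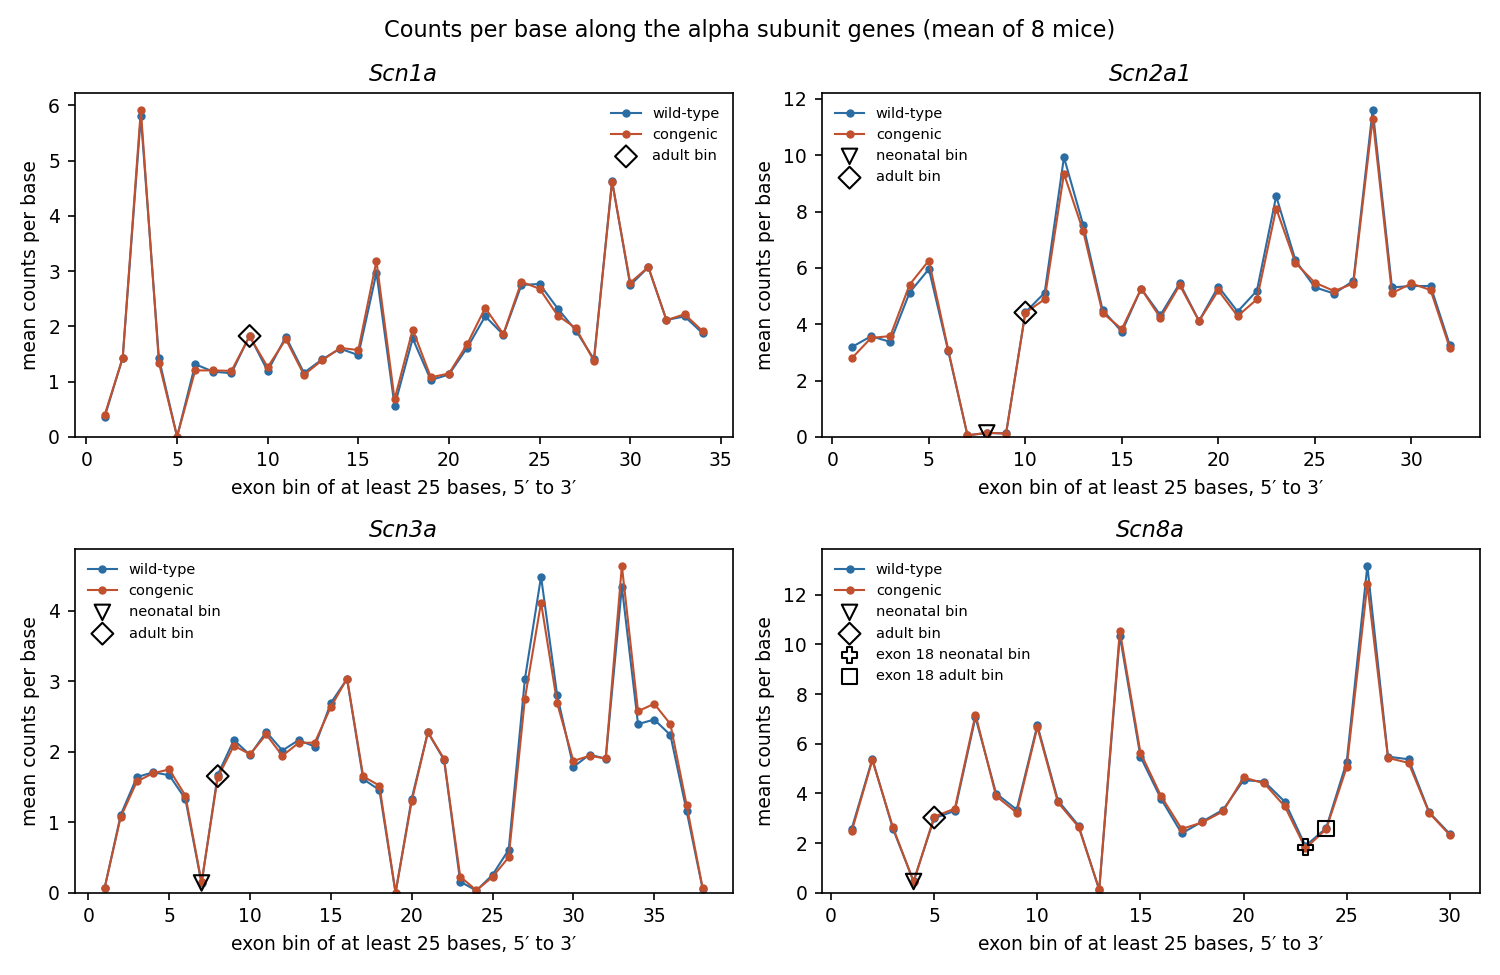
Mean counts per base (vertical axis) of each exon bin of at least 25 bases in the 4 alpha subunit genes, in order from 5′ to 3′ (horizontal axis), for 8 wild-type and 8 congenic mice, with the paired exons marked. The Scn8a panel shows 1 of its 2 gene identifiers and leaves out the 3 bins of the other, which lie 5′ of it. The lines of the genotypes lie almost on each other, and the neonatal bins drop to 0.139 counts per base in Scn2a1, 0.140 in Scn3a and 0.455 in Scn8a.

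Counts per base were higher toward the 3′ end in all 4 alpha genes. The 3 coding bins nearest the 3′ end, each of at least 50 bases, held 1.95 ± 0.177 times the counts per base of the 3 nearest the 5′ end in Scn1a, 1.56 ± 0.168 times in Scn3a, 1.36 ± 0.138 times in Scn2a1 and 1.35 ± 0.123 times in Scn8a (SD, n = 16 each). The ratio was above 1 in every mouse, with 1.10 in Scn2a1 as the lowest. By bin order, the 92-base pairs lie in the 5′ part of these genes, and exon 18 of Scn8a lies nearer the 3′ end. By length it does not, since the last bin of Scn8a alone has 6389 bases.

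Across the 16 mice, Scn8a fell as markers of septum and pallidum rose. Their score, the mean centred log2 CPM of 6 genes, correlated with log2 CPM of Scn8a at Pearson r = -0.765 (permutation p = 0.00037, adjusted p = 0.031 over 84 relations of 7 genes with 12 marker lists) and Spearman rho = -0.715 (permutation p = 0.0024, adjusted p = 0.1004). Without Sample_4733 and Sample_4753, the farthest from the median score, r was -0.766, and within the sexes it was -0.650 in females and -0.892 in males (n = 8 each). The lowest Scn8a mice among males, Sample_4673 and Sample_4733, had scores of 0.21 and 0.64, and the highest, Sample_4671, had the lowest score of all, -0.43. The summed level of these markers was 106 to 192 CPM in congenic mice, against 111 to 177 CPM in wild-type mice, all 6 were detected, and Zic1 ranged from 13.8 to 55.7 CPM. Dbi made up most of this sum, with a mean of 85.9 CPM of 135 CPM over the 16 mice. Ependymal markers ran the same way with r = -0.704 (permutation p = 0.0025, adjusted p = 0.103), with a summed level of 17.4 to 44.4 CPM in congenic mice, against 19.9 to 37.0 CPM in wild-type mice. Scn8a rose with the medium spiny neuron score, at r = 0.581 (permutation p = 0.018, adjusted p = 0.387) and rho = 0.641 (permutation p = 0.0087, adjusted p = 0.182). Within the sexes that r was 0.700 in females and 0.819 in males (n = 8 each). It was 0.505 without Sample_4804 and Sample_4806. The part of tissue makeup in the Scn8a values was not tested. Of the 84 relations, only that of Scn8a with the septum and pallidum score passed the correction, by r.

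Of the 21 relations among the subunits themselves, 2 passed the correction by Pearson's r. Scn2a1 went with Scn3a (r = 0.720, permutation p = 0.0020, adjusted p = 0.041; rho = 0.656, permutation p = 0.0071, adjusted p = 0.108) and with Scn8a (r = 0.678, permutation p = 0.0039, adjusted p = 0.041; rho = 0.629, permutation p = 0.010, adjusted p = 0.108). Both were weaker without Sample_4671 and Sample_4738, the highest in Scn2a1: r was then 0.474 (permutation p = 0.087) and 0.475 (permutation p = 0.085) over 14 mice. Within the sexes r was 0.738 in females and 0.767 in males for Scn3a, and 0.744 and 0.677 for Scn8a (n = 8 each). Scn4b went with no other subunit, the nearest being Scn3b at r = -0.453 (permutation p = 0.078, adjusted p = 0.234).

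The genes whose log2 CPM followed each subunit most closely over the 16 mice, among 11701 other genes of at least 5 CPM, are given as a description, since all share libraries and depth. For Scn1a they were Col4a3bp (r = 0.837), Usp31 (r = 0.830) and Colec12 (r = 0.801), and for Scn2a1 Sgip1 (r = 0.878), Herc1 (r = 0.876) and Faxc (r = 0.872). For Scn3a they were 4833424O15Rik (r = 0.926), Mbnl2 (r = 0.874) and Nckap1 (r = 0.864), and for Scn8a D430041D05Rik (r = 0.943), Srgap1 (r = 0.926) and Zfp462 (r = 0.920). For Scn2b they were Hsph1 (r = 0.806), Lrp4 (r = 0.783) and BC068281 (r = 0.775), for Scn3b Rrp8 (r = 0.928), Hbegf (r = 0.920) and Pprc1 (r = 0.892), and for Scn4b Maneal (r = 0.846), AI593442 (r = 0.768) and Fbln5 (r = 0.765). Mbnl2, an RNA-binding splicing regulator, was also on the list of regulators below.

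The remaining genes of the channel system were read from 3 lists. Of 9 other sodium channel genes, 8 passed the filter and 0 were called by genotype or sex in edgeR. Nalcn, a sodium leak channel, stood at 162 CPM, while Scn9a (9.39 CPM), Scn7a (1.61 CPM), Scn11a (0.275 CPM) and Scn10a (0.193 CPM) were low and Scn4a was not tested. The lowest p by sex was Scn10a, at 0.246 CPM in males and 0.140 CPM in females (adjusted p = 0.203), and by genotype Scn11a (p = 0.210).

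Of 25 partners that anchor, traffic or modulate the channels, all were tested and 0 were called. By genotype the lowest p was Tnr, a matrix protein that binds beta subunits, at 68.9 CPM in congenic mice, against 76.0 CPM in wild-type mice (log2 fold change -0.14, p = 0.030, adjusted p = 0.999), followed by Ank2 (p = 0.211) and Map1b (p = 0.243). By sex 7 (of 25) had an unadjusted p under 0.05, beside 14.7% of all genes, led by Fgf11, a channel-binding fibroblast growth factor homologue (log2 fold change 0.24, adjusted p = 0.198) and with Sptbn4, the spectrin of the axon initial segment, among them (log2 fold change 0.15, adjusted p = 0.249); both values were higher in males. Of 12 known or possible regulators of the exon pairs, 0 were called. By genotype the lowest p were Nova1 (0.065), Mbnl1 (0.186) and Ptbp2 (0.288), and by sex Ptbp1 (0.042), Hnrnph1 (0.052) and Rbfox3 (0.067). Hnrnph1, which lies in the congenic segment, stood at 361 CPM in congenic mice, against 359 CPM in wild-type mice. The median log2 fold changes by genotype of the 3 lists were 0.0082, -0.0075 and 0.015, beside 0.0015 over all genes.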

How the data were processed

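The authors deposited whole-number read counts per gene and per exon bin, not normalised, for 48 runs (16 mice on 3 lanes each), per the file headers. The tools listed in the submitters' processing notes are HTSeq 0.6.1p1, limma 3.22.7, FastQC 0.10.1 and edgeR 3.8.6, and the builds mm9 and mm10, none with a role. Neither aligner nor strand setting is given in the sources used here, and antisense reads may be included. The labels disagree on read layout (50 bp single-end or 100 bp paired-end), and mates of a pair may have been counted singly. Exon-bin counts exceeded gene counts, by 1.10 times in Scn2b to 1.38 times in Scn3b, and the cause was not tested.

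Runs were summed per mouse, and n counts mice, so p-values measure the spread between mice. Genes were kept by the edgeR filter (minimum count 10, minimum total 15), scaled by TMM and tested with the edgeR 4.0.16 quasi-likelihood test in R 4.3.3, with genotype and sex in the model. Exon usage used diffSpliceDGE. Calls needed an adjusted p under 0.05. Both fits and the exact tests were tested on simulated data. The changes simulated for the fits were in genes and bins with more counts than the neonatal bins, so recovery at such low counts was not tested. Bin coordinates and sequences come from GENCODE vM1 on NCBIM37 (mm9), whose rebuilt bins matched the deposited number in 16570 of 16971 genes with at least 5 bins (97.6%) and in 6 of the 7 subunits. Scn8a bins come from 2 gene identifiers, 30 and 3 bins. Correlations used log2(CPM + 0.5) and 100000 permutations with Python 3.11.15 and scipy 1.17.1.

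Named were all 7 genes, the bins of the exon pairs, the 2 bins of lowest p per alpha subunit and comparison, the 3 genes most like each subunit, and the 3 of lowest p in each list. Some sequences and genes under these rules are not reported here. The members and lists were chosen with earlier results of these data known. The alternatives were DESeq2, limma, other size factors, no filter, single lanes, leaving out each mouse, a cortical marker covariate, other bins for the levels and flanking bins for the shares.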

Additional observations from a re-analysis of the deposited data

Results flagged for a closer look

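In 36 groups of 8 mice (subunit CPM, neonatal shares and shares of the family, by genotype), 3 held a mouse far from the others, by Dixon's gap over the range. Chance gives about 1 in 20 groups. Scn1a in wild-type Sample_4712 stood at 140.4 CPM, below the next wild-type mouse at 149 CPM (gap over range 0.581). The Scn2a1 neonatal share in congenic Sample_4671 was 4.65%, above the next at 3.16% (0.587), on 24 neonatal counts. The Scn8a exon 18 neonatal share in wild-type Sample_4734 was 8.42%, below the next at 14.04% (0.577), on 32 neonatal counts.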

How the results depend on the processing

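No subunit gene and no subunit bin was called under any alternative tried. The genes called by sex overall did change: 259 with DESeq2 and 13 with lane 4 alone or with the cortical marker covariate, against 23, and 12 to 76 when a mouse was left out (12 without Sample_4672 or Sample_4731, 76 without Sample_4712). Bins called by sex were 86 with limma diffSplice, 0 with lane 3 and 6 with lane 4 or 5, against 37, and 11 to 59 without single mice (11 without Sample_4804 or Sample_4806). The bin called by genotype was lost (0) with limma diffSplice, with a minimum of 10 counts and in each lane alone, and in 4 of 16 fits without a mouse (Sample_4673, Sample_4712, Sample_4738 or Sample_4739).

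Differences of neonatal share changed sign in single lanes, which hold a part of the counts, none past the threshold. Every pair did so in at least 1 lane, by genotype and by sex. Larger differences were among them, such as Scn3a by sex, at -1.58 points with all lanes summed. By genotype, Scn2a1 gave -0.262 (lane 3) and -0.878 points (lane 4), Scn3a -3.51 (lane 4), the 92-base pair of Scn8a 0.314 (lane 3) and 0.318 (lane 4), and exon 18 3.63 (lane 3). By sex, Scn2a1 gave 0.333 (lane 5), Scn3a 1.11 (lane 3), Scn8a 1.59 (lane 4) and exon 18 0.660 (lane 3). Leaving out mice gave -0.207 to 0.165 for Scn2a1 and -1.35 to 0.334 for exon 18 by genotype, and -1.23 to 0.210 for the Scn8a pair by sex. It gave 0.342 to 1.40 for Scn3a and -1.61 to -0.176 for the Scn8a pair by genotype, and -0.732 to -0.252 for Scn2a1, -2.03 to -1.01 for Scn3a and -2.15 to -0.758 for exon 18 by sex. The order of levels changed for Scn1a over Scn3a, at a log2 ratio of -0.13 with fully coding bins and -0.21 with their median, against 0.33. Scn2a1 over Scn3b passed the threshold with gene-table counts (0.099) and ranged from 0.041 to 0.061 without single mice, past the threshold in 4 of 16.

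Some fold changes also turned. For Scn8a by genotype these were 4.5e-05 without the filter, 0.0037 in lane 5 and 0.013 with the covariate, and by sex -0.000375 in lane 5. For Scn3a by sex they were -0.00093 in lane 3 and -0.015 with the covariate, and for the Scn2b interaction -0.0075 in lane 3. For bins they were -0.016 (Scn2a1 bin 29, sex, lane 4), 0.1001 (Scn2a1 bin 6, sex, lane 4) and -0.018 (Scn8a bin 16, genotype, lane 5). Without single mice the ranges that crossed 0 were -0.040 to 0.027 (Scn8a), -0.037 to 0.0082 (Scn2a1), -0.0079 to 0.030 (Scn3b) and -0.0077 to 0.042 (Scn4b) by genotype, -0.032 to 0.034 (Scn8a) and -0.012 to 0.050 (Scn3a) by sex, and -0.029 to 0.14 (Scn1a) and -0.020 to 0.047 (Scn2b) for the interaction. The cause of these changes was not tested. Replicate numbers are mouse numbers and are not shared between groups. No paired analysis was possible because the groups share no replicate number. The neonatal bins hold 5 to 67 counts per mouse in the 92-base pairs, which limits what the shares can show.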
